A study of Pleurotus ostreatus with 9 samples.

Results

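The genes described here encode proteins that the annotation of the deposited table assigns to transmembrane transport. They are the 41 genes of 10682 in the table that carry the ontology term transmembrane transporter activity and that are not in the KEGG pathways of ABC transporters, the peroxisome or oxidative phosphorylation. The term itself was carried by 46 genes, and the pathway condition removed 5. The species, Pleurotus ostreatus or oyster mushroom, rots wood by degrading lignin and was grown as mycelium of strain GEMB-PO1 in shaken glucose, yeast extract and peptone medium. Poly(A) RNA was sequenced from 9 cultures in 3 groups of 3. The first group was given butyl benzyl phthalate (BBP), a phthalate plasticizer, together with 1 mM piperonyl butoxide (PB), a blocker of cytochrome P450 enzymes. The second was given BBP alone, and the third, the control, had nothing added. The series design states 50 mg/L BBP and the sample protocols 200 mg/L, so no dose is tied to a value below. A group given PB without BBP was not analysed here, so an action of PB by itself cannot be told apart from one on the response to BBP. All cultures were harvested after 3 days, and the labels give the 9 libraries 1 batch. Below, libraries or replicates "with PB" are those given BBP and PB together. The design text calls the 3 samples of a group biological replicates.

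Transmembrane transporters move nutrients, metabolites and toxic compounds across the plasma membrane and the membranes of organelles. Secondary transporters use the gradient of a second solute, often protons, in place of ATP. Filamentous fungi hold large families of them, which take up sugars, organic and inorganic anions, peptides and iron bound to siderophores, and which also export compounds. In white-rot fungi they bring the breakdown products of wood into the hypha. Levels are given as FPKM, the authors' fragment counts scaled to transcript length and library total, and group values as mean ± SD of 3 libraries. A log2 change is the fitted difference ± SE of edgeR's quasi-likelihood test on the deposited counts, with a Benjamini-Hochberg adjusted p over the 9399 genes tested. Genes were called at an adjusted p under 0.05, and "rose" and "fell" are used of called genes.

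The label secondary transporter rests on the removal of other pathways more than on the annotation. All 41 genes carried the terms for transmembrane transport and integral membrane component, and 0 carried a term that names a symporter, an antiporter or secondary transport. A description other than hypothetical protein was present for 1 gene, as OPT superfamily. Their other terms placed 27 in anion transport, and 1 in siderophore transport. Of the others, 3 were placed in the endoplasmic reticulum, 2 in the plasma membrane, 1 in the vacuole membrane and 2 only in a membrane or the cytoplasm. Each gene was placed in 1 class in a fixed order of terms. The plasma membrane term was thus carried by 3 genes, though 2 are classed by it. KEGG orthology K08139, the family of fungal sugar and proton symporters, was given to 4. Orthology numbers of proteins that are no transporters were given to 16, namely acid phosphatase (8 genes), adenylosuccinate synthase (5), guanine deaminase (1), the DNA repair protein RAD50 (1) and a scaffold protein of the deadenylase complex (1). The ontology term and the orthology number of these 16 thus disagree, and the product of each is an annotation only. Neither protein nor promoter sequences of these genes were used here.

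Most of the 41 genes were expressed at moderate levels. Their mean over the 9 libraries ran from 0.748 to 124 FPKM, with a median of 10.6 FPKM, against 15.9 FPKM over all genes in the table. A mean of at least 10 FPKM was reached by 22 of them and one of at least 50 FPKM by 8. A mean of at least 1 FPKM, the limit for testing, was reached by 39. Just outside it lay PLEOSDRAFT_1046330 (0.928 FPKM) and PLEOSDRAFT_1104187 (0.748 FPKM). Just inside it lay PLEOSDRAFT_1025469 (1.08 FPKM), PLEOSDRAFT_1112578 (1.20 FPKM) and PLEOSDRAFT_1103027 (1.20 FPKM). The 41 genes together made up 0.165% ± 0.00593 of all FPKM with BBP and PB, 0.165% ± 0.0143 with BBP and 0.144% ± 0.0166 in control (SD, n = 3 each). The 5 genes of highest mean held 50.8% ± 0.249 of that sum with BBP and PB, 39.1% ± 0.721 with BBP and 38.3% ± 1.22 in control. The 5 were picked by their mean over all 9 libraries, those with PB included, so a gene high with PB could enter through that level. PLEOSDRAFT_1112577, one of them, averaged 166 FPKM with BBP and PB, 72.3 FPKM with BBP and 37.2 FPKM in control. The larger share of the 5 in the cultures with PB is thus partly set by that choice. These shares are given as a description, without a test.

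**Figure D1:**
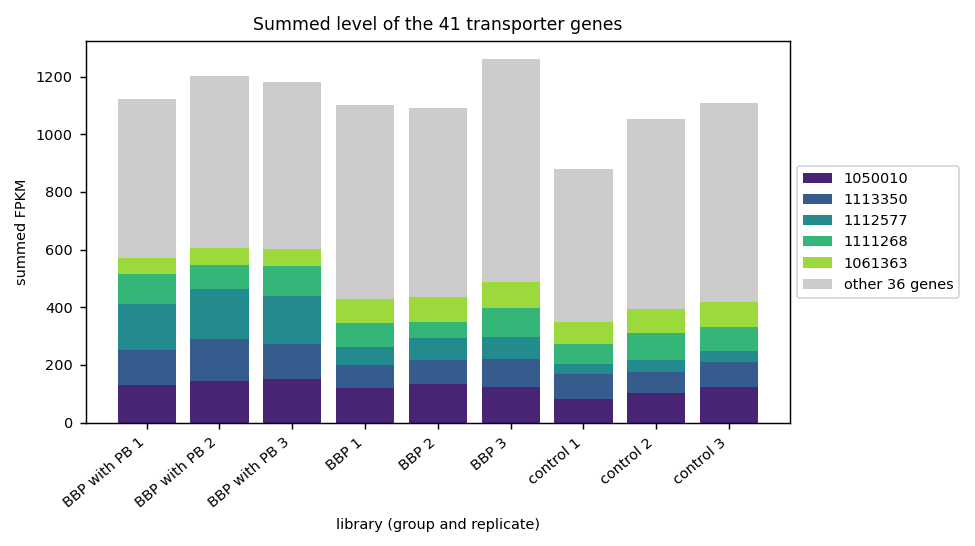
Summed FPKM (vertical axis) of the 41 transporter genes in each of the 9 libraries (horizontal axis), split into the 5 genes of highest mean level and the other 36. The 3 libraries with BBP and PB have the largest part held by the 5 genes, and PLEOSDRAFT_1112577 shows the clearest widening. The means are 50.8% with BBP and PB, 39.1% with BBP and 38.3% in control. The 5 were picked by the mean over all 9 libraries, so their levels with PB took part in the choice.

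Across the 9 libraries total counts ran from 38098599 to 49161706. Vmh2, PLEOSDRAFT_1091049, a hydrophobin of vegetative hyphae, was at 0 to 0.767 FPKM with BBP and PB, 10.5 to 102 FPKM with BBP and 570 to 843 FPKM in control. The single gene matched by the fruiting body words, PLEOSDRAFT_1090164, stayed between 2.10 and 5.53 FPKM in all 9 libraries. The mycelium label was thus met by its marker in control, and the marker was at or near 0 in the cultures with PB; its part in the results below was not tested. In such bulk RNA, fewer cells of a type and less RNA per cell cannot be told apart.

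Of the 39 tested genes, 25 were called in at least 1 of the 3 comparisons and 14 in none. The matching share was not worked out over all tested genes, of which 41.1% were called for BBP with PB against control alone. Of the 25, 13 were higher in 1 or more comparisons and lower in none, 11 were lower and never higher, and 1 went both ways. With BBP against control 8 rose and 0 fell (13 and 0 at an unadjusted p under 0.05, and 11 and 0 by DESeq2), so that 20.5% of the tested members were called, against 18.4% of all tested genes (10.1% higher and 8.33% lower). By DESeq2 more of all tested genes were called too, both higher and lower. With BBP and PB against BBP 6 rose and 9 fell, or 38.5% called, against 20.4% of all tested genes (9.98% higher and 10.5% lower). With BBP and PB against control 13 rose and 11 fell, or 61.5% called, against 41.1% of all tested genes (19.9% higher and 21.2% lower). The median log2 change of the members was 0.32, -0.10 and -0.06 in these 3 comparisons, against -0.01, -0.01 and -0.04 over all tested genes. The first of the members' medians was 0.11 with limma on log2(FPKM + 1) and 0.10 on log2(FPKM + 0.1), and the last turned to 0.20 with no filter on low values and was -0.28 under scaling by library size alone. The first median over all tested genes was -0.10 with limma on log2(FPKM + 1). The last was -0.26 under scaling by library size alone and stayed negative with no filter. The comparisons share their control, BBP or PB libraries and are not independent of each other. A gene called with BBP and PB against BBP and against control thus rests on the same 3 libraries with PB in both.

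The FPKM ranges of the groups did not overlap in 9 of the 39 genes for BBP against control (23.1%, against 34.3% of all tested genes). They did not overlap in 19 for BBP with PB against BBP (48.7%, against 45.3%) and in 28 for BBP with PB against control (71.8%, against 57.2%). FPKM follow total counts, whereas the test uses trimmed-mean (TMM) factors. Under scaling by library size alone the median change of all genes moved by -0.11 for BBP against control, -0.11 for BBP with PB against BBP and -0.22 for BBP with PB against control. The count of 8 higher with BBP fell to 5 under that scaling and to 4 with limma on log2(FPKM + 1). Without control replicate 2 or PB replicate 3 it was 4, and without any other library but BBP replicate 2 or control replicate 3 it was 5. For BBP with PB against BBP the 6 rises became 2 without PB replicate 2, PB replicate 3 or BBP replicate 1. For BBP with PB against control the 13 higher and 11 lower became 10 and 13 with limma on log2(FPKM + 1). Over all tested genes the main fit called 947 higher with BBP and 938 higher with BBP and PB against BBP. With BBP and PB against control it called 1871 higher and 1994 lower. In each fit named here these counts moved in the same direction as those of the members.

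**Figure D2:**
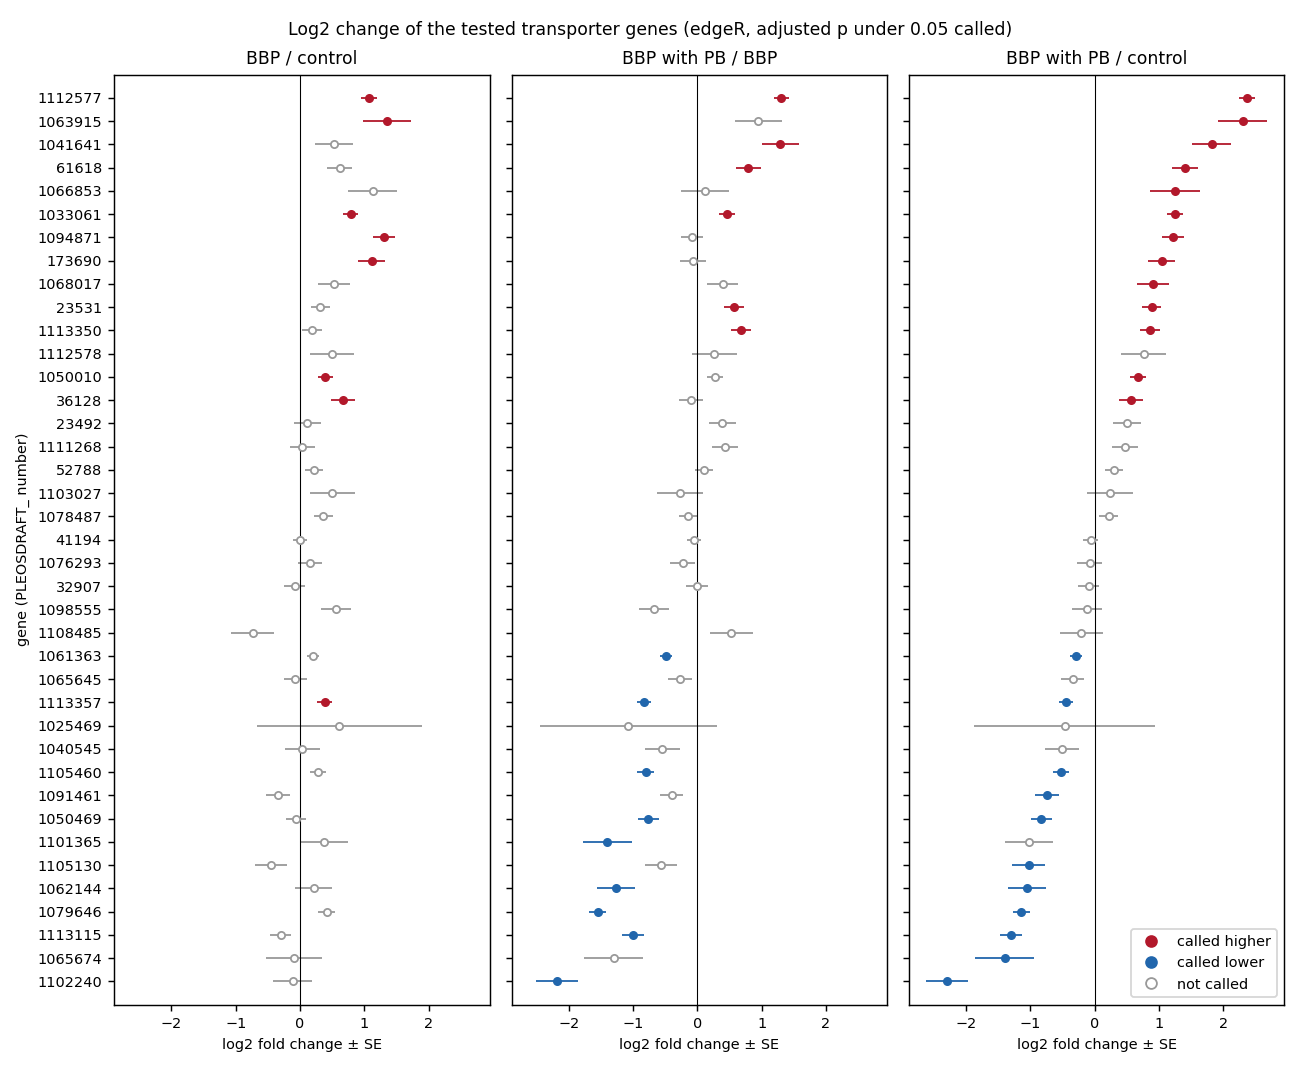
Log2 fold change ± SE (horizontal axes) of the 39 tested transporter genes (rows, sorted by the change in the right panel) for BBP over control, BBP with PB over BBP and BBP with PB over control. Filled points are genes called by edgeR at an adjusted p under 0.05 and open points are not called. The left panel has 8 called genes, all higher, while the other panels have calls on both sides, 6 and 9 in the middle and 13 and 11 on the right.

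The anion transport genes, 25 of the 39 tested members, held the widest changes in both directions. Of 25 tested, 5 rose and 0 fell with BBP against control, 4 rose and 7 fell with BBP and PB against BBP, and 8 rose and 8 fell with BBP and PB against control. The share called was 20%, 44% and 64%, against 18.4%, 20.4% and 41.1% of all tested genes. The median log2 changes of the class were 0.38, -0.27 and -0.12. The anion transport term covers uptake and export of organic and inorganic anions, and the substrate of none of these genes is annotated.

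PLEOSDRAFT_1112577 rose at both steps and had the highest level of this class with BBP and PB and with BBP, while 4 others of the class were higher in control. It measured 159, 172 and 168 FPKM with BBP and PB, 61.6, 76.1 and 79.1 FPKM with BBP, and 32.3, 41.7 and 37.7 FPKM in control. The 3 groups did not overlap. Its log2 change was 1.07 ± 0.121 for BBP against control (adjusted p = 0.000682) and 1.31 ± 0.122 for BBP with PB against BBP (adjusted p = 0.000144). Against control the level with BBP and PB was 5.18-fold higher (log2 change 2.37 ± 0.126, adjusted p = 1.56e-06). All 3 calls held in every alternative fit, the 9 that each left out 1 library included.

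PLEOSDRAFT_61618 measured 53.5, 53.5 and 52.5 FPKM with BBP and PB, 28.4, 36.7 and 34.2 FPKM with BBP, and 26.2, 26.3 and 16.7 FPKM in control. The groups were fully apart and the libraries with PB nearly equal. It rose by 0.79 ± 0.195 with BBP and PB against BBP (adjusted p = 0.019) and by 1.40 ± 0.197 against control (adjusted p = 0.000467). For BBP against control its change of 0.61 ± 0.195 was not called (adjusted p = 0.0538). The call against BBP was lost without any 1 PB library or without BBP replicate 1 (adjusted p = 0.0553 to 0.0800).

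PLEOSDRAFT_1063915 had 10.4, 11.4 and 11.3 FPKM with BBP and PB, 5.996, 9.49 and 2.99 FPKM with BBP, and 2.30, 1.78 and 3.68 FPKM in control. The BBP libraries were spread widely and overlapped the control, while the libraries with PB lay above both. It was 4.93-fold higher with BBP and PB than in control (log2 change 2.30 ± 0.382, adjusted p = 0.00123). The rise with BBP against control, 1.35 ± 0.374 (adjusted p = 0.0328), was lost in 7 of the 9 fits that each left out 1 library, all but those omitting BBP replicate 3 or control replicate 3 (adjusted p = 0.0513 to 0.101). With BBP and PB against BBP the change of 0.95 ± 0.365 was not called (adjusted p = 0.0954).

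PLEOSDRAFT_1041641 was a low-level gene, at 2.63, 1.88 and 3.56 FPKM with BBP and PB, 0.928, 1.51 and 1.07 FPKM with BBP, and 0.898, 0.817 and 0.897 FPKM in control. All 3 libraries with PB exceeded the other 6. It rose by 1.82 ± 0.298 against control (adjusted p = 0.00115) and by 1.29 ± 0.292 against BBP (adjusted p = 0.0131). On omitting PB replicate 3 or BBP replicate 1 the second call was lost (0.0588 and 0.0552).

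PLEOSDRAFT_173690 rose with BBP and with BBP and PB, each against control, and had no called change between the treated groups. It had 6.29, 9.82 and 8.26 FPKM with BBP and PB, 9.77, 7.39 and 10.3 FPKM with BBP, and 4.28, 3.88 and 5.47 FPKM in control. Both treated groups lay above the control and overlapped each other. The log2 change was 1.11 ± 0.209 for BBP against control (adjusted p = 0.00661), -0.07 ± 0.206 for BBP with PB against BBP (adjusted p = 0.847) and 1.04 ± 0.209 for BBP with PB against control (adjusted p = 0.00336).

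Smaller rises were found in 3 other anion transport genes. PLEOSDRAFT_23531, with the orthology number of adenylosuccinate synthase, had 26.1, 34.9 and 29.1 FPKM with BBP and PB, 23.9, 18.6 and 22.7 FPKM with BBP, and 16.9, 17.2 and 22.3 FPKM in control. The libraries with PB lay above all others. It rose by 0.89 ± 0.151 against control (adjusted p = 0.00142) and by 0.57 ± 0.15 against BBP (adjusted p = 0.0252), the second lost without PB replicate 2 (adjusted p = 0.101), PB replicate 3 (0.0618) or BBP replicate 2 (0.0577) and under scaling by library size alone (0.0714). PLEOSDRAFT_1068017, with the same orthology number, had 6.19, 6.31 and 8.12 FPKM with BBP and PB, 4.58, 6.10 and 6.21 FPKM with BBP, and 2.501, 5.69 and 4.70 FPKM in control. Here the libraries with PB lay above the control and overlapped BBP. It was called for BBP with PB against control alone (0.91 ± 0.249, adjusted p = 0.0156), and not without PB replicate 3 (adjusted p = 0.0624), under scaling by library size alone (0.0700) or with limma on log2(FPKM + 1) (0.0515). PLEOSDRAFT_36128 averaged 4.01 ± 0.730 FPKM with BBP and PB, 4.62 ± 0.328 FPKM with BBP and 3.16 ± 0.634 FPKM in control. Its rises of 0.66 ± 0.183 with BBP (adjusted p = 0.033) and 0.57 ± 0.184 with BBP and PB against control (adjusted p = 0.0323) were lost without control replicate 1, control replicate 2 or PB replicate 3, the first also without any 1 BBP library and the second also without PB replicate 2 (adjusted p = 0.0518 to 0.138), and both under scaling by library size alone (adjusted p = 0.0887 and 0.202).

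Among the anion transport genes that fell with PB, PLEOSDRAFT_1102240 had the largest change. It had 0.649, 0.648 and 0.808 FPKM with BBP and PB, 3.49, 2.18 and 4.59 FPKM with BBP, and 2.74, 3.69 and 5.68 FPKM in control. The libraries with PB lay below all others, and the BBP and control libraries overlapped. The log2 change was -2.18 ± 0.327 against BBP (adjusted p = 0.00173), -2.29 ± 0.327 against control (adjusted p = 0.000507) and -0.11 ± 0.301 for BBP against control (adjusted p = 0.817).

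PLEOSDRAFT_1079646, a much more abundant gene with the acid phosphatase orthology number, had 20.7, 22.1 and 23.5 FPKM with BBP and PB, 70.6, 57.0 and 81.3 FPKM with BBP, and 48.6, 62.2 and 59.0 FPKM in control. It too fell with PB, while BBP and control overlapped. The change was -1.55 ± 0.137 against BBP (adjusted p = 0.000115) and -1.14 ± 0.135 against control (adjusted p = 0.000176). For BBP against control it was 0.41 ± 0.133 and not called (adjusted p = 0.0582).

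PLEOSDRAFT_1113357, with the same orthology number, was the 1 gene called in both directions. It had 11.1, 9.80 and 11.7 FPKM with BBP and PB, 23.0, 19.7 and 19.6 FPKM with BBP, and 16.1, 16.7 and 18.6 FPKM in control, and the 3 groups did not overlap. It fell by 0.83 on the log2 scale with BBP and PB against BBP (SE 0.115, adjusted p = 0.00113) and by 0.45 against control (SE 0.115, adjusted p = 0.0117). The rise with BBP against control, 0.38 ± 0.114 (adjusted p = 0.0429), was lost in each of the 9 fits without 1 library (adjusted p = 0.0521 to 0.137), and under scaling by library size alone (adjusted p = 0.162).

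PLEOSDRAFT_1113115 had 16.7, 18.7 and 19.2 FPKM with BBP and PB, 41.5, 29.4 and 46.4 FPKM with BBP, and 41.6, 57.7 and 57.0 FPKM in control. The libraries with PB were below all others. It fell by 1.00 against BBP (SE 0.166, adjusted p = 0.00301) and by 1.30 against control (SE 0.167, adjusted p = 0.000279) on the log2 scale. PLEOSDRAFT_1105460 averaged 11.7 ± 1.23 FPKM with BBP and PB, 21.9 ± 2.09 FPKM with BBP and 19.5 ± 3.22 FPKM in control, and its change of -0.81 ± 0.13 against BBP (adjusted p = 0.00259) and -0.52 ± 0.13 against control (adjusted p = 0.00971) had the same direction. Both carry the adenylosuccinate synthase number, as do the rising PLEOSDRAFT_23531 and PLEOSDRAFT_1068017, so genes under 1 orthology number moved apart. The fifth gene with that number, PLEOSDRAFT_1108485, was called in no comparison (2.12 ± 0.763 FPKM with BBP and PB, 1.57 ± 0.556 with BBP and 2.83 ± 0.669 in control).

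In the other falling genes of the class the BBP libraries were less uniform. PLEOSDRAFT_1062144 had 4.23, 5.57 and 6.13 FPKM with BBP and PB, 14.0, 7.61 and 19.5 FPKM with BBP, and 9.97, 14.5 and 14.1 FPKM in control. It fell against BBP (-1.27 ± 0.297, adjusted p = 0.0155; lost without PB replicate 1, 0.0652, or BBP replicate 1, 0.0505) and against control (-1.05 ± 0.296, adjusted p = 0.0174; lost without PB replicate 1, 0.0662, or control replicate 2, 0.0557). PLEOSDRAFT_1101365 had 1.81, 2.04 and 2.21 FPKM with BBP and PB, 6.78, 2.31 and 8.11 FPKM with BBP, and 4.53, 4.39 and 5.35 FPKM in control. In both genes the libraries with PB were below all others, and BBP replicate 2 was the BBP library closest to those with PB. The second fell against BBP (-1.40 ± 0.379, adjusted p = 0.0281), a call lost on omitting any PB library or BBP replicate 1 or 3 (adjusted p between 0.0774 and 0.0948), and its change against control, -1.02 ± 0.377, was not called (adjusted p = 0.0525). It overlaps a gene on the other strand by 31 bases, and the strand setting of the counting is not given in the sources used here.

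PLEOSDRAFT_1105130 and PLEOSDRAFT_1091461 were called lower with BBP and PB against control and in neither other comparison. PLEOSDRAFT_1105130 had 5.45, 6.30 and 4.57 FPKM with BBP and PB, 10.5, 6.07 and 9.53 FPKM with BBP, and 8.43, 16.01 and 14.6 FPKM in control. Its libraries with PB lay below the control and overlapped BBP. Its change against control was called (-1.03 ± 0.251, adjusted p = 0.00922). PLEOSDRAFT_1091461 averaged 43.5 ± 5.39 FPKM with BBP and PB, 61.7 ± 15.5 FPKM with BBP and 84.7 ± 14.9 FPKM in control, and its change against control was called too (-0.74 ± 0.182, adjusted p = 0.00924). The mean of BBP lay between the other groups in both, and neither step was called by itself (adjusted p = 0.138 to 0.223). PLEOSDRAFT_1091461 overlaps a gene on the other strand by 2 bases, and the untested PLEOSDRAFT_1046330 overlaps one by 40 bases.

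The remaining 8 tested anion transport genes were called in no comparison. They include PLEOSDRAFT_1040545 at 28.2 ± 4.14 FPKM with BBP and PB, 44.2 ± 12.6 FPKM with BBP and 46.9 ± 18.9 FPKM in control, and PLEOSDRAFT_1076293 at 28.3 ± 1.57, 35.6 ± 5.03 and 35.0 ± 11.99 FPKM in the same order of groups. PLEOSDRAFT_32907 and PLEOSDRAFT_1098555 had means of 6.68 and 3.45 FPKM over the 9 libraries, and PLEOSDRAFT_1108485, PLEOSDRAFT_1112578, PLEOSDRAFT_1103027 and PLEOSDRAFT_1025469 had 2.17, 1.20, 1.20 and 1.08 FPKM. The counts of PLEOSDRAFT_1025469 were 0, 0 and 29 with BBP and PB, 52, 23 and 0 with BBP, and 5, 24 and 26 in control. It was the only member with a count of 0 in any library.

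**Figure D3:**
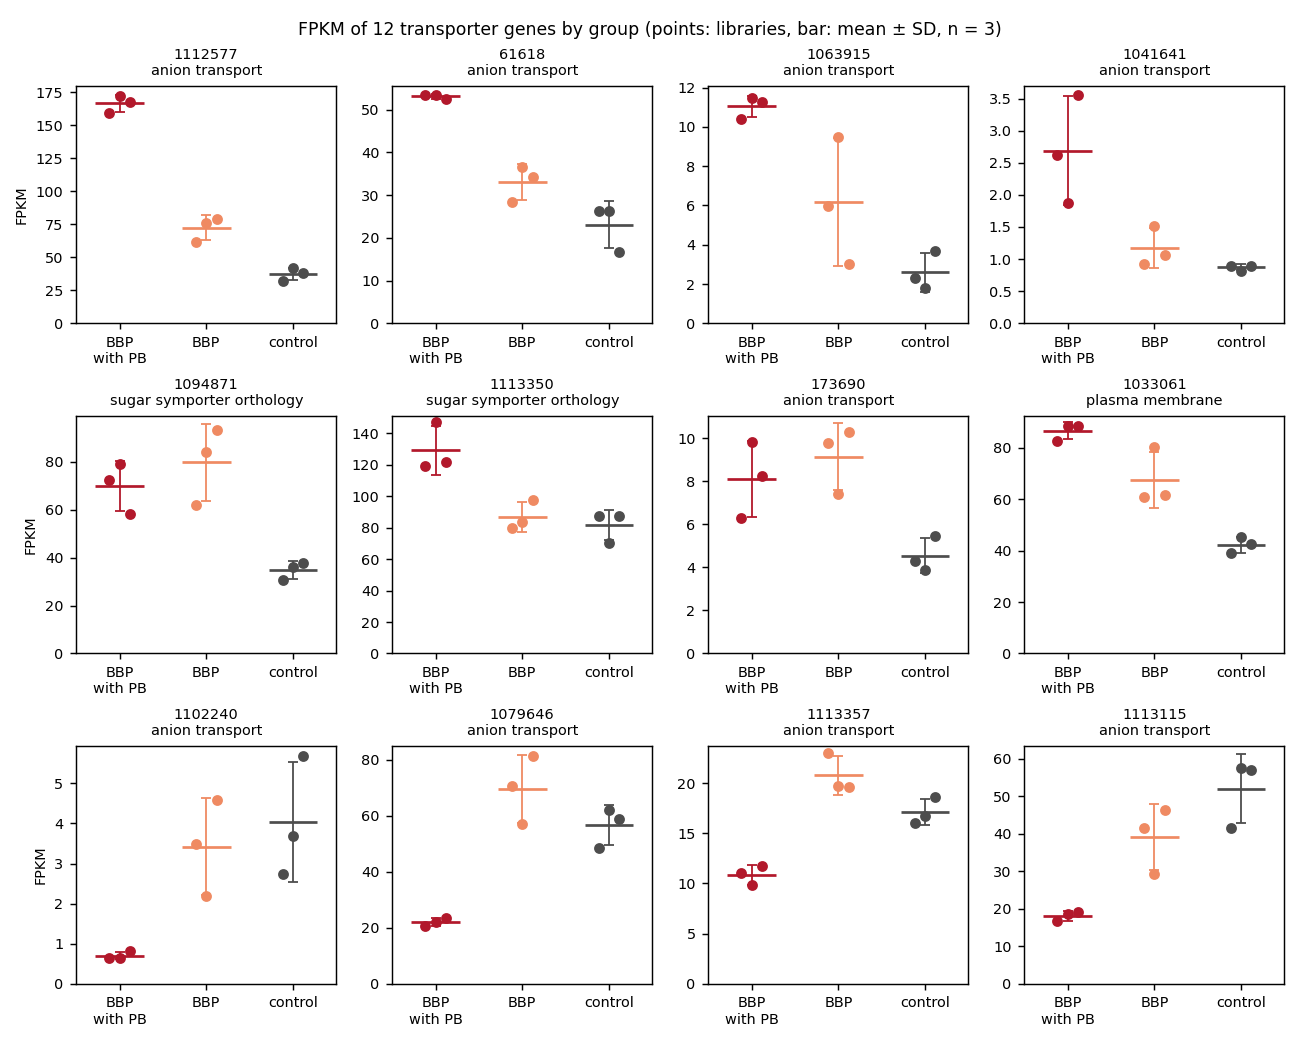
FPKM (vertical axes) of 12 called transporter genes in cultures with BBP and PB, with BBP and in control, with each library as a point and the mean ± SD (n = 3) as bars. PLEOSDRAFT_1112577 climbs to 159 to 172 FPKM with PB, PLEOSDRAFT_1094871 and PLEOSDRAFT_173690 lie above the control in both treated groups, and the 4 genes of the bottom row are lowest with PB.

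The 4 genes with the sugar symporter orthology number, a family that carries hexoses into fungal cells together with protons, went separate ways. With BBP against control 1 rose and 0 fell, and with BBP and PB against BBP 1 rose and 0 fell. With BBP and PB against control 2 rose and 1 fell. Of all tested genes 18.4%, 20.4% and 41.1% were called in these comparisons. PLEOSDRAFT_1094871, which also carries the term for cellular response to glucose, had 72.3, 78.9 and 58.3 FPKM with BBP and PB, 61.7, 84.0 and 93.1 FPKM with BBP, and 30.7, 35.9 and 37.7 FPKM in control. Both treated groups lay above every control library and overlapped each other. It rose by 1.31 ± 0.17 with BBP (adjusted p = 0.00136) and by 1.22 ± 0.17 with BBP and PB against control (adjusted p = 0.000434), and the change between the treated groups was -0.08 ± 0.167 (adjusted p = 0.76).

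PLEOSDRAFT_1113350, second of the 41 by its mean over the 9 libraries, had 119, 147 and 121 FPKM with BBP and PB, 79.5, 83.7 and 97.6 FPKM with BBP, and 87.2, 70.5 and 87.6 FPKM in control. Here BBP and control overlapped and the libraries with PB stood above both. It rose by 0.68 ± 0.154 against BBP (adjusted p = 0.0135; lost without PB replicate 2, 0.0602, or BBP replicate 1, 0.0576) and by 0.86 ± 0.155 against control (adjusted p = 0.00187). For BBP against control its change was 0.19 ± 0.154 and not called (adjusted p = 0.42).

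PLEOSDRAFT_1065674 had 2.71, 2.82 and 1.77 FPKM with BBP and PB, 6.90, 2.61 and 9.88 FPKM with BBP, and 5.496, 11.4 and 5.57 FPKM in control. Its libraries with PB lay below the control, and BBP replicate 2 was among them. Its fall against control, -1.40 ± 0.456 (adjusted p = 0.0328), was lost without any 1 PB library, BBP replicate 1 or control replicate 2 (adjusted p = 0.0509 to 0.134). PLEOSDRAFT_1065645, at 4.59 ± 0.725 FPKM with BBP and PB, 5.95 ± 0.777 FPKM with BBP and 6.74 ± 0.982 FPKM in control, was called in no comparison.

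The siderophore transport gene PLEOSDRAFT_1050010, whose terms name iron uptake by chelation and cellular iron homeostasis, had the highest mean of the 41 over the 9 libraries, though PLEOSDRAFT_1112577 was higher with BBP and PB. It had 132, 143 and 150 FPKM with BBP and PB, 121, 134 and 122 FPKM with BBP, and 82.6, 104 and 124 FPKM in control. The libraries with PB exceeded every control library, and BBP overlapped both other groups. It rose by 0.67 ± 0.121 with BBP and PB against control (adjusted p = 0.00195). The rise with BBP against control, 0.39 ± 0.121 (adjusted p = 0.0485), was lost on omitting any single library other than control replicate 3 (adjusted p = 0.0710 to 0.122), and under scaling by library size alone (adjusted p = 0.211).

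The OPT superfamily gene PLEOSDRAFT_41194, of a family that imports oligopeptides or metal chelates, was called in no comparison. It averaged 42.3 ± 2.16 FPKM with BBP and PB, 47.4 ± 6.21 FPKM with BBP and 51.1 ± 2.51 FPKM in control. Its log2 changes were -0.01 ± 0.112, -0.06 ± 0.112 and -0.06 ± 0.112 for BBP against control, BBP with PB against BBP and BBP with PB against control, with adjusted p from 0.681 to 0.975.

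The plasma membrane gene PLEOSDRAFT_1033061, which carries the RAD50 orthology number, rose at both steps. It had 82.7, 88.2 and 88.5 FPKM with BBP and PB, 60.9, 80.1 and 61.7 FPKM with BBP, and 39.0, 45.4 and 42.4 FPKM in control. The 3 groups did not overlap. The change was 0.78 ± 0.121 for BBP against control (adjusted p = 0.00272) and 1.24 ± 0.122 for BBP with PB against control (adjusted p = 5.8e-05). For BBP with PB against BBP it was 0.46 ± 0.12 (adjusted p = 0.0239), a call lost on omitting any PB library or BBP replicate 1 or 3 (adjusted p between 0.0595 and 0.0858) and under scaling by library size alone (adjusted p = 0.0849). The other gene classed by the plasma membrane term, PLEOSDRAFT_23492, was not called (6.72 ± 0.266 FPKM with BBP and PB, 5.53 ± 0.976 with BBP and 5.54 ± 1.86 in control).

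The vacuole membrane gene PLEOSDRAFT_1061363 had 54.6, 59.97 and 57.3 FPKM with BBP and PB, 83.1, 86.4 and 89.5 FPKM with BBP, and 77.0, 81.0 and 85.3 FPKM in control. Lowest were the libraries with PB, and replicates differed little. It fell against BBP (-0.49 ± 0.0922, adjusted p = 0.00579) and against control (-0.29 ± 0.0921, adjusted p = 0.0288), the second call lost without PB replicate 1 (0.0983), PB replicate 3 (0.0946), control replicate 1 (0.0730) or control replicate 2 (0.0528). By edgeR 18.4% of all tested genes were called with BBP, 20.4% with BBP and PB against BBP and 41.1% with both against control. None of the 3 endoplasmic reticulum genes was called by edgeR or by DESeq2 in any comparison. The most abundant of them, PLEOSDRAFT_1111268, had 105, 84.7 and 105 FPKM with BBP and PB, 82.3, 54.6 and 98.2 FPKM with BBP, and 69.1, 95.3 and 83.5 FPKM in control, with all groups overlapping (unadjusted p = 0.0413 for BBP with PB against control). PLEOSDRAFT_1078487 and PLEOSDRAFT_52788 had means of 18.7 and 15.95 FPKM over the 9 libraries, and the first had an unadjusted p of 0.0321 for BBP against control.

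Of the 2 genes with no substrate or organelle term, PLEOSDRAFT_1050469 fell with PB and PLEOSDRAFT_1066853 rose against control. The first had 8.00, 7.54 and 9.30 FPKM with BBP and PB, 15.2, 14.1 and 16.1 FPKM with BBP, and 17.2, 13.7 and 20.0 FPKM in control. The libraries with PB lay below all others, with a change of -0.76 ± 0.161 against BBP (adjusted p = 0.00949) and -0.83 ± 0.161 against control (adjusted p = 0.00287). The second, with the guanine deaminase orthology number, had 11.7, 15.3 and 11.03 FPKM with BBP and PB, 11.7, 5.81 and 20.1 FPKM with BBP, and 5.56, 4.88 and 8.10 FPKM in control. Its BBP libraries were spread widely and overlapped both other groups, while the libraries with PB lay above the control. It rose against control (1.25 ± 0.382, adjusted p = 0.0253), a call lost without PB replicate 1, PB replicate 2, control replicate 1 or control replicate 2 (adjusted p = 0.0501 to 0.0877).

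Position, which played no part in choosing these genes, showed that several lie side by side. The 41 genes were spread over 11 of the 12 scaffolds in the table, and 10 pairs lay within 50 kb of each other, all of them at most 4598 bases apart. PLEOSDRAFT_1112577, PLEOSDRAFT_1112578 and PLEOSDRAFT_1104187 follow each other on 1 strand with gaps of 686 and 653 bases, and all carry the acid phosphatase number and the anion transport term. Their levels were far apart. PLEOSDRAFT_1112577 averaged 166 ± 6.43 FPKM with BBP and PB, 72.3 ± 9.36 FPKM with BBP and 37.2 ± 4.69 FPKM in control, as described above. PLEOSDRAFT_1112578 averaged 1.40 ± 0.148 FPKM with BBP and PB, 1.25 ± 0.532 FPKM with BBP and 0.951 ± 0.204 FPKM in control, and was not called against control (0.76 ± 0.348, adjusted p = 0.106). PLEOSDRAFT_1104187, below the level for testing, averaged 0.909 ± 0.105 FPKM with BBP and PB, 0.845 ± 0.292 FPKM with BBP and 0.490 ± 0.280 FPKM in control. How the counting shared out reads that fit more than 1 copy is not given in the sources used here.

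The neighbours PLEOSDRAFT_61618 and PLEOSDRAFT_173690, 840 bases apart on 1 strand, both rose with BBP and PB against control, by 1.40 ± 0.197 and 1.04 ± 0.209. Between BBP with PB and BBP their calls differed, at 0.79 ± 0.195 (called) and -0.07 ± 0.206 (not called). PLEOSDRAFT_1105460 and PLEOSDRAFT_1113115, 489 bases apart on 1 strand, both fell with BBP and PB against BBP and against control, with the values given above. In the row PLEOSDRAFT_1105130, PLEOSDRAFT_1040545 and PLEOSDRAFT_1041641, with gaps of 1289 and 1226 bases, the first fell against control (-1.03 ± 0.251), the second was not called (-0.51 ± 0.268, adjusted p = 0.154) and the third, on the opposite strand, rose (1.82 ± 0.298). PLEOSDRAFT_1108485 and PLEOSDRAFT_1068017, 1780 bases apart, differed in their calls as well, at -0.21 ± 0.333 (not called) and 0.91 ± 0.249 (called) against control. Adjacent genes were thus called in the same direction in some rows and not in others, and no difference between neighbours was tested.

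**Figure D4:**
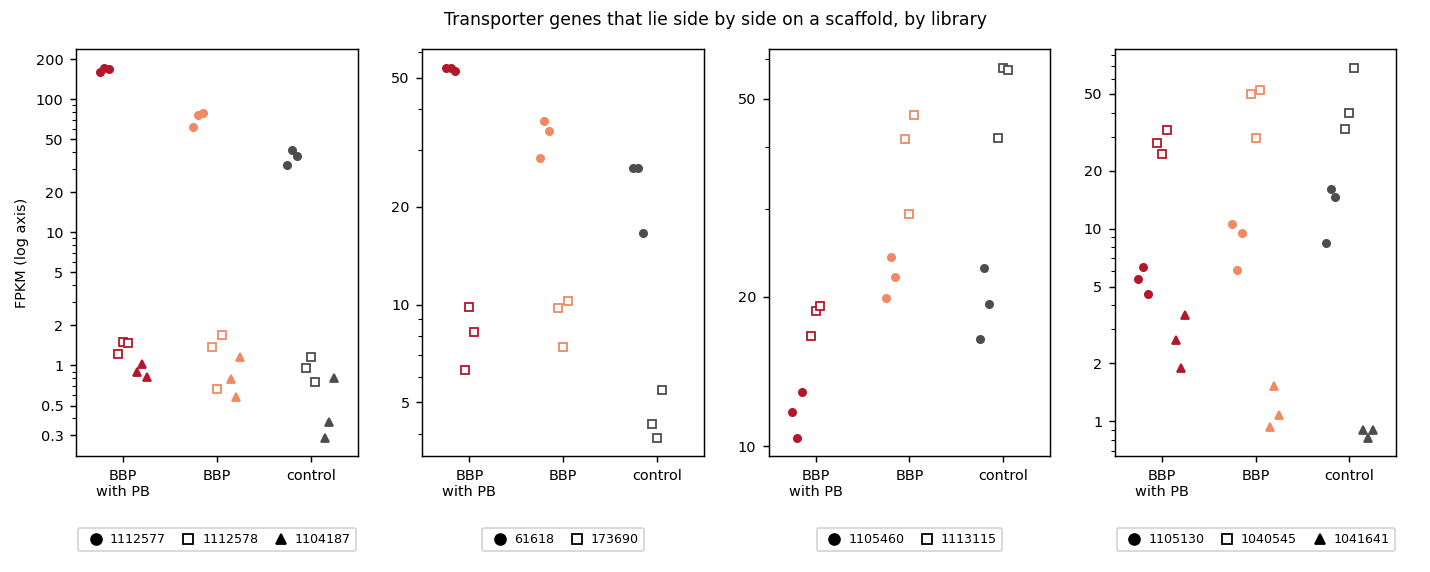
FPKM on log axes of transporter genes that lie side by side, in 4 panels of 1 row of neighbours each, for the 3 libraries of BBP with PB, BBP and control. In the left panel PLEOSDRAFT_1112577 stands far above its neighbours in every library, in the third panel both genes are lowest with PB, and in the right panel PLEOSDRAFT_1041641 is highest with PB while PLEOSDRAFT_1105130 is highest in 2 of the 3 control libraries.

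The spread between replicates differed by group: the median coefficient of variation over the 40 members without a count of 0 was 11.7% with BBP and PB, 17.2% with BBP and 18.4% in control. Among the BBP libraries alone, PLEOSDRAFT_1066853, PLEOSDRAFT_1065674, PLEOSDRAFT_1101365 and PLEOSDRAFT_1062144 were lowest in BBP replicate 2 and highest in BBP replicate 3. Of the same libraries, PLEOSDRAFT_1063915 was highest in BBP replicate 2 and lowest in BBP replicate 3. These genes were picked after their values were seen. In all of them but PLEOSDRAFT_1066853, BBP replicate 2 was the BBP library nearest to those with PB. Without BBP replicate 2, 6 members rose and 11 fell with BBP and PB against BBP, and 7 rose and 0 fell with BBP against control. In that fit more of all tested genes were called with BBP and PB against BBP than the 938 higher and 983 lower of the main fit. With BBP against control fewer were called than the 947 higher and 783 lower of the main fit. Both held in each direction.

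**Figure D5:**
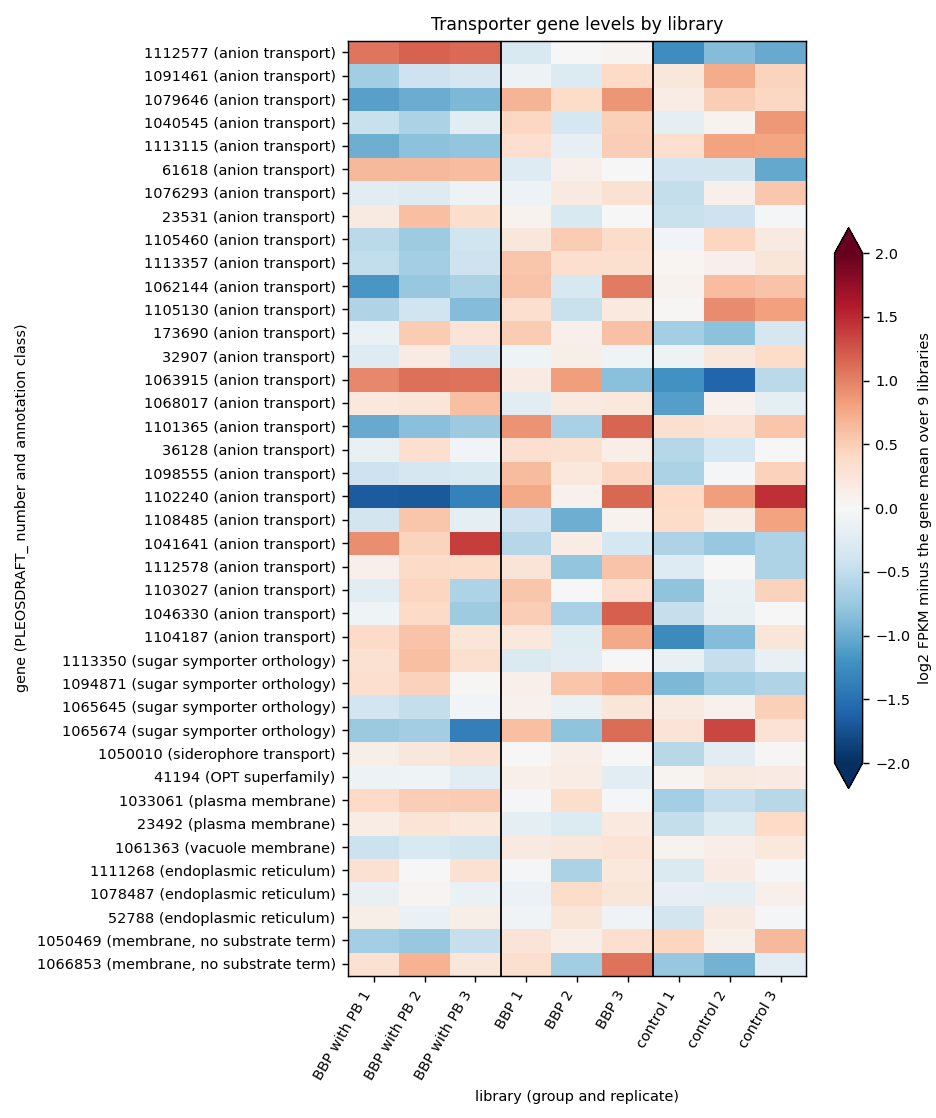
Colour shows the log2 FPKM of each gene minus its mean over the 9 libraries (the scale ends at -2 and 2), with libraries as columns and genes as rows grouped by annotation. PLEOSDRAFT_1025469 is left out because it has counts of 0. The 3 columns with PB resemble each other more closely than those of the other groups, and PLEOSDRAFT_1102240 and PLEOSDRAFT_1112577 show the strongest contrast between columns with PB and control.

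Other genes annotated with transport, outside the 41, were set beside them through lists built from ontology terms. In the wide list of the transmembrane transport process 23 of 103 tested genes rose and 5 fell with BBP against control, 14 rose and 23 fell with BBP and PB against BBP, and 24 rose and 23 fell with BBP and PB against control. The share called was 27.2%, 35.9% and 45.6%, against 18.4%, 20.4% and 41.1% of all tested genes. The median log2 changes of the list were 0.13, -0.11 and -0.08. Its largest change with BBP was in PLEOSDRAFT_48881, a membrane gene with no substrate term, at 235 ± 26.0 FPKM with BBP and 22.3 ± 4.23 FPKM in control (3.51 ± 0.141). The largest with BBP and PB against BBP and against control was in the drug export gene PLEOSDRAFT_1035372, a pump driven by ATP (3.56 ± 0.182 and 4.97 ± 0.195). These were larger than any change among the 41, where the log2 changes ran from -2.29 to 2.37.

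In the sugar transport list 5 of 19 rose and 1 fell with BBP against control, and 0 rose and 4 fell with BBP and PB against BBP. With BBP and PB against control 5 rose and 3 fell, and the 3 medians were 0.42, -0.12 and 0.03. The share called was 31.6%, 21.1% and 42.1%, against 18.4%, 20.4% and 41.1% of all tested genes. PLEOSDRAFT_1095022, annotated as a glucose and proton symporter and holding the same orthology number as the 4 sugar genes above, rose by 1.83 ± 0.202 with BBP and by 2.24 ± 0.205 with BBP and PB against control. PLEOSDRAFT_1093037, with the same ontology terms, fell by 2.06 with BBP and PB against BBP on the log2 scale (SE 0.467, 7.33 ± 1.18 FPKM with BBP and PB and 32.9 ± 20.2 FPKM with BBP). The oligopeptide list had 1 of 11 higher and 0 lower with BBP, and 3 higher and 5 lower with BBP and PB against BBP. With BBP and PB against control it had 2 higher and 4 lower. Its share called was 9.09%, 72.7% and 54.5%, and its medians were 0.14, -0.10 and 0.10. Its OPT superfamily gene PLEOSDRAFT_1086088 rose by 0.70 ± 0.136 with BBP and by 2.01 ± 0.14 with BBP and PB against control, and its OPT superfamily gene PLEOSDRAFT_1056629 fell to 12.8 ± 1.18 FPKM with BBP and PB, against 46.0 ± 28.3 FPKM with BBP (-1.74 ± 0.517).

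Inorganic ion transport held more called falls than rises. The share called was 10.5% with BBP, 34.2% with BBP and PB against BBP and 42.1% with BBP and PB against control. Over all tested genes it was 18.4%, 20.4% and 41.1%. Of 38 tested genes 1 rose and 3 fell with BBP, 1 rose and 12 fell with BBP and PB against BBP, and 2 rose and 14 fell with BBP and PB against control, with medians of -0.04, -0.21 and -0.34. The high-affinity iron permease gene PLEOSDRAFT_1068763 had 99.5 ± 20.0 FPKM with BBP and PB and 360 ± 29.9 FPKM with BBP (-1.75 ± 0.251), the phosphate transporter gene PLEOSDRAFT_1090394 fell by 2.47 on the log2 scale with BBP and PB against control (SE 0.383), and the CorA superfamily metal ion gene PLEOSDRAFT_173243 fell by 1.09 with BBP (SE 0.198). Amino acid transport had 1 of 8 higher and 0 lower with BBP (PLEOSDRAFT_1077263, 0.72 ± 0.175). It had 1 and 1 with BBP and PB against BBP, and 3 and 2 with BBP and PB against control. The share called was 12.5%, 25% and 62.5%, and the medians were -0.12, 0.04 and 0.22. PLEOSDRAFT_60937 had the largest changes with BBP and PB (-2.06 ± 0.264 against BBP and -2.66 ± 0.269 against control).

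All 4 tested drug transport genes rose with BBP and PB, against BBP and against control, and 2 of them with BBP. Of all tested genes 9.98%, 19.9% and 10.1% rose in these comparisons. The medians of the 4 genes were 0.66, 1.10 and 0.44. PLEOSDRAFT_1106912, a xenobiotic pump driven by ATP, had 153 ± 15.0 FPKM with BBP and PB, 76.8 ± 3.03 FPKM with BBP and 57.2 ± 1.47 FPKM in control. The general transporter activity list had 5 of 36 higher and 1 lower with BBP (PLEOSDRAFT_41947 at 0.94 ± 0.198). With BBP and PB against BBP it had 2 and 8 (PLEOSDRAFT_1078544 at -1.95 ± 0.287). With BBP and PB against control it had 6 and 8 (PLEOSDRAFT_1040083 at 2.30 ± 0.25). The share called was 16.7%, 27.8% and 38.9%, against 18.4%, 20.4% and 41.1% of all tested genes. The medians of the list were 0.10, -0.35 and -0.26. Of the 4 tested genes that the pathway condition removed, PLEOSDRAFT_1036038, an ABC transporter gene, fell with BBP (-0.60 ± 0.177), and the ATP synthase gene PLEOSDRAFT_1056340 rose with BBP and PB against control (0.39 ± 0.115). These lists overlap each other, and no test of one list against another was made.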

How the data were processed

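Poly(A) RNA libraries of 9 cultures were grouped by their titles into BBP with PB, BBP and control, 3 each. The submitters' processing notes list the tools fastp, HISAT2 and StringTie. Their versions, the counting tool, the strand setting and the genome build were not given in the sources used here. Gene descriptions name strain PC15, whereas the cultures were of strain GEMB-PO1. The deposited counts per gene are raw whole numbers made by the authors, and the deposited FPKM per gene were made by the authors beside them. Every per-sample column was matched to a sample by library name. Positions were used only for gene order and gaps, and 0 identifiers matched the RefSeq table.

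Counts were tested with edgeR 4.0.16 (R 4.3.3, limma 3.58.1, DESeq2 1.42.0 as an alternative). Genes with a mean of at least 1 FPKM (9399) entered 1 model of 3 groups with TMM factors. Each SE is the size of the log2 change over the square root of F. The test was tried on simulated counts of these 9399 genes, where 50 genes were changed at each log2 size of 0.5, 1, 2 and 3. At a log2 change of 1 it recovered 30 for BBP against control, and 35 each for BBP with PB against BBP and against control. At 0.5 it recovered 5, 2 and 6. False calls among the unchanged genes were 9, 6 and 16. In the data 18.4%, 20.4% and 41.1% of tested genes were called, a far larger share than was changed in the simulation. The adjusted p depends on that share, so these recoveries do not give the power of the test on the data. No replicate pair agreed within counting noise (chi-square over its degrees of freedom, 43.1 to 355), so none was merged. Beyond the words biological replicates in the design text nothing says that cultures were separate; p-values then measure only the spread between these samples. PCR copies are not independent molecules, so counting error alone understates the error of a count.

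The 41 genes and the lists were chosen with earlier results of these data known. Named genes were the 20 called members with the largest change and the 5 of highest mean FPKM, with values in every library, all other members with means, and from each other list the called gene with the largest change in each comparison. The alternatives were scaling by library size alone, DESeq2 size factors, the DESeq2 test, limma on log2(FPKM + 1) and log2(FPKM + 0.1), no filter, a filter at 5 FPKM, the 6 libraries compared, a replicate block and each library left out. No major facilitator or spore gene was found by its words, and the mitochondrial carrier list held 1 gene, so these were not described. Figures used Python 3.11.15, pandas 2.3.3 and matplotlib 3.10.9.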

Additional observations from a re-analysis of the deposited data

How the results depend on the processing

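Of 47 calls of members, 27 were tested and held in all 18 alternative fits, 3 held in all but the filter at 5 FPKM, which did not test them, and 17 were lost in at least 1; none of the called changes of members reversed sign in these fits. The 8 members higher with BBP against control became 5 under scaling by library size alone, 4 with limma on log2(FPKM + 1), 4 with limma on log2(FPKM + 0.1) and 4 with only the 6 libraries compared. Over all tested genes the number called higher, 947 in the main fit, was smaller too in each of these fits. The 4 members that held throughout are PLEOSDRAFT_1112577, PLEOSDRAFT_1094871, PLEOSDRAFT_173690 and PLEOSDRAFT_1033061. Without 1 library the counts of members higher and lower ran from 4 to 8 and 0 to 1 for BBP against control, 2 to 6 and 7 to 11 for BBP with PB against BBP, and 11 to 15 and 8 to 12 for BBP with PB against control. The counts over all tested genes varied between these fits as well. The median log2 change of members ran from 0.26 to 0.38, -0.20 to -0.06 and -0.0641 to 0.16 in the same fits. For BBP against control it was 0.11 with limma on log2(FPKM + 1) and 0.10 on log2(FPKM + 0.1). The median over all tested genes was -0.01 there in the main fit and -0.10 with limma on log2(FPKM + 1). For BBP with PB against control the members' median was -0.28 under scaling by library size alone and 0.20 with no filter on low values, so its sign is not settled. Over all tested genes that median went from -0.04 in the main fit to -0.26 under scaling by library size alone, so this shift was shared by all genes. The fit with no filter also held PLEOSDRAFT_1046330 and PLEOSDRAFT_1104187, which the main fit did not test, so its median is over a larger set. The cause of these shifts was not tested.

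The replicate numbers pair nothing in the labels, and 2 of 9 same-number pairs had a correlation of deviations over 0.1 (range -0.16 to 0.22). With a replicate block, 4 members were higher with BBP against control, and the other counts stayed within 1.5 times. Fewer of all tested genes were called higher with BBP in that fit too.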
